A study of Mus musculus with 24 samples.

Results

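The interferon regulatory factor (Irf) genes encode transcription factors that share a DNA-binding domain, and 8 of them, *Irf1*, *Irf2*, *Irf3*, *Irf4*, *Irf5*, *Irf7*, *Irf8* and *Irf9*, were followed here as a gene family picked by name. All 8 were among the 56884 genes of the count table, and all 8 were among the 13679 genes with enough reads to be tested. RNA-seq was performed on bone marrow-derived macrophages (BMDM), which are marrow cells grown for 6 days with macrophage colony-stimulating factor, from 4 wild-type C57BL/6J female mice of 9 weeks, numbered 1, 2, 4 and 5. Cells of each mouse were left naive or were given IL-4 together with IL-13, each at 20 ng/ml, for 24 hours, alone or with an inhibitor added 1 hour before the cytokines, which gave 6 groups of 4 libraries.

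The inhibitor groups all received IL-4/IL-13. Tunicamycin (5 µg/ml) blocks N-linked glycosylation and loads the endoplasmic reticulum with unfolded protein, Sal003 (10 µM) blocks dephosphorylation of the translation factor eIF2α, and oligomycin (1 µM) inhibits the mitochondrial ATP synthase. ISRIB (1 µM) counteracts the effect of phosphorylated eIF2α on translation, the step through which the integrated stress response (ISR) acts. The labels disagree for 8 libraries. The 4 libraries named "Oligo" carry titles that give oligomycin with ISRIB, and the 4 named "Oli_ISR" carry titles that give oligomycin alone. They are called the Oligo libraries and the Oli_ISR libraries by library name, and which of them contained ISRIB was not decided from their values. Each value comes from whole cultures, so less RNA per cell and fewer cells of a type cannot be told apart.

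By way of background, type I interferon and microbial sensors act through this family. IRF3 and IRF7 are phosphorylated downstream of nucleic acid sensors and Toll-like receptors and switch on interferon and early response genes. IRF9 joins STAT2 in the ISGF3 complex, which carries the signal from the interferon receptor, and *Irf7* is itself a target of that complex. IRF1 and IRF8 drive inflammatory and antigen-presentation genes, IRF2 competes with IRF1 for DNA, IRF5 drives inflammatory cytokines, and IRF4 is the member tied to the IL-4 response of macrophages.

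The libraries held 16238727 to 26725278 reads on genes (median 18999998), and the spread between replicates was small, with a median biological coefficient of variation of 7.2%. The macrophage markers were all detected in every group, with a summed level of 8450 to 35800 CPM (counts scaled to the normalized library size). Markers of B cells, T cells, mast cells and basophils and erythroid cells summed to at most 1.28 CPM in any library. Markers of dendritic cells, which also use *Irf4* and *Irf8*, summed to 5.52 to 8.89 CPM in naive cells, to 7.37 to 9.23 CPM with IL-4/IL-13 and to 1.02 to 2.9 CPM in the 4 inhibitor groups. Markers of neutrophils summed to 17 to 60.5 CPM without an inhibitor, to 0 to 0.286 CPM with tunicamycin, to 1.9 to 6.49 CPM in the Sal003 and Oligo libraries and to 14.3 to 18.3 CPM in the Oli_ISR libraries. Markers of fibroblasts summed to 3.36 to 129 CPM over all libraries and were lowest in mouse 5 in every group. The part of these cells in the Irf results was not tested.

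The bases ahead of the start of 4 members are shown as examples. *Irf4* had the largest decrease of the family, and *Irf1*, *Irf2* and *Irf8* were the members with a motif match ahead of the start. For *Irf1*, *Irf2* and *Irf8* the choice does not follow the size of the changes. *Irf7* changed more than these members with IL-4/IL-13 (log2 fold change −4.04) and is not shown. The bases were read 5′ to 3′ from the GRCm39 genome ahead of the start of the canonical transcript, on the plus strand. They were trimmed to hold no annotated exon of the gene itself. Capitals mark matches to 5 motifs searched on both strands from 250 bases ahead of the start to 50 bases after it: the interferon-stimulated response element (ISRE) core GAAANNGAA, the interferon-γ activated (GAS) element TTCNNNGAA, a STAT6-type element TTCNNNNGAA, the ETS-IRF composite GGAANNGAA and the C/EBP-ATF response element (CARE) core TGATGNAA.
Irf4, chr13:30932959-30933208: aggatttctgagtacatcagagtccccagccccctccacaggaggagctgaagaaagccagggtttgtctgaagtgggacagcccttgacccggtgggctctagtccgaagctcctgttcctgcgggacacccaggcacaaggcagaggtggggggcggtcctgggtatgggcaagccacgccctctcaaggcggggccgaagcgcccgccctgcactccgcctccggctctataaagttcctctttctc
Irf1, chr11:53660591-53660811: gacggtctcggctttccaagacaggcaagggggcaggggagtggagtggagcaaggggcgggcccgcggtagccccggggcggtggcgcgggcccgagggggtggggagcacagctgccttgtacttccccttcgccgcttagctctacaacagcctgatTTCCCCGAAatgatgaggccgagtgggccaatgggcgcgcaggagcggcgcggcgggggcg
Irf2, chr8:47192510-47192749: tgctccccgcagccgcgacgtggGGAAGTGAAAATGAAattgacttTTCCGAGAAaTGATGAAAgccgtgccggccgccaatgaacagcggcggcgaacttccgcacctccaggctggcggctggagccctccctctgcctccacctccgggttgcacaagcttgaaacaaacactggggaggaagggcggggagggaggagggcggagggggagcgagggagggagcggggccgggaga
Irf8, chr8:121462847-121463095: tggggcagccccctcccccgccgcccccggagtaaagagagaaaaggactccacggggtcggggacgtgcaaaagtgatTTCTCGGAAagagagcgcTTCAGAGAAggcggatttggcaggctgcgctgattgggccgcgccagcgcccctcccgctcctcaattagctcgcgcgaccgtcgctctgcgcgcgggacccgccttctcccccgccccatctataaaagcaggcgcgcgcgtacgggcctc

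The window of *Irf4* held none of the 5 motifs. That of *Irf1* held 1 GAS element, at 90 to 82 bases ahead of the start, and the printed stretch is also exon sequence of the gene Gm74496 on the other strand. That of *Irf2* held an ETS-IRF composite overlapping an ISRE core, then a GAS element and a CARE core, and lies partly in exons of Gm16675 on the other strand and inside a longer annotated *Irf2* transcript. That of *Irf8* held 2 GAS elements. Of the other members, *Irf9* had a STAT6-type element at 1 to 10 bases after the start base of its transcript, and *Irf3*, *Irf5* and *Irf7* had no match. A GAS element was thus found in 3 of 8 members, against 8.84% of 21667 protein-coding gene promoters of the same length. The ISRE core was found in 8.77% of all promoters, the ETS-IRF composite in 8.13%, the STAT6-type element in 6.8% and the CARE core in 3.85%. A match is a description of letters and not of binding.

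*Irf4* (ENSMUSG00000021356; GRCm39 chromosome 13, 30933209 to 30950959, plus strand, no exon shared with another gene) had the widest range of the family. Naive cells of mice 1, 2, 4 and 5 had 13.1, 13.1, 13.7 and 14.3 CPM, and IL-4/IL-13 cells had 303, 314, 297 and 316 CPM. The groups lay far apart, and the 4 mice responded alike. The rise was 22.7-fold (log2 fold change 4.51, SE 0.11, adjusted *P* = 4.1e-21), between 4.43 and 4.58 on the log2 scale within each mouse.

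Tunicamycin removed nearly all *Irf4* transcript. The 4 libraries had 1.13, 1.29, 1.87 and 2.04 CPM, from 22 to 40 reads each, which was below every naive library. The level fell 195-fold from that of IL-4/IL-13 cells (log2 fold change −7.61, SE 0.14, adjusted *P* = 6.2e-24) and lay 8.58-fold under that of naive cells (log2 fold change −3.10, SE 0.17, adjusted *P* = 1.2e-14). Tunicamycin cells had thus less *Irf4* RNA than cells that never received IL-4/IL-13.

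The other inhibitors left *Irf4* between the naive and the IL-4/IL-13 level. Sal003 libraries had 88.5, 85.9, 110 and 71.7 CPM, or 29.1% ± 6.04 (SD, n = 4) of the IL-4/IL-13 level of the same mouse. Oli_ISR libraries had 82.2, 68.2, 80.3 and 65.1 CPM, or 24.1% ± 3.46 (SD, n = 4) of that level. Oligo libraries had 24.7, 25.7, 26.4 and 24.6 CPM, or 8.25% ± 0.46 (SD, n = 4), the narrowest spread of the 3.
None of these groups overlapped with naive or IL-4/IL-13 cells. The log2 fold change against IL-4/IL-13 was −1.79 with Sal003 (SE 0.09, adjusted *P* = 4.3e-14), −2.06 in Oli_ISR libraries (SE 0.09, adjusted *P* = 2.9e-15) and −3.60 in Oligo libraries (SE 0.10, adjusted *P* = 9.6e-20). All 3 stayed above naive, by log2 fold changes of 2.72, 2.45 and 0.91 (adjusted *P* = 6e-17, 4.1e-16 and 8e-08).

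The 8 libraries with oligomycin differed among themselves. *Irf4* was 2.91-fold lower in the Oligo than in the Oli_ISR libraries (log2 fold change −1.54, SE 0.10, adjusted *P* = 5.9e-12), lower in 4 of 4 mice. In order of level the groups ran IL-4/IL-13, Sal003, Oli_ISR, Oligo, naive and tunicamycin. Every neighbour in that order differed past the threshold, the closest being Sal003 and Oli_ISR (log2 difference 0.27, SE 0.09, adjusted *P* = 0.0434), whose libraries overlapped. That call was lost without mouse 1, 2 or 4, without the filter on low counts and when the other groups were left out of the fit, with log2 fold changes of −0.19 to −0.33 for Oli_ISR against Sal003.

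**Figure D1:**
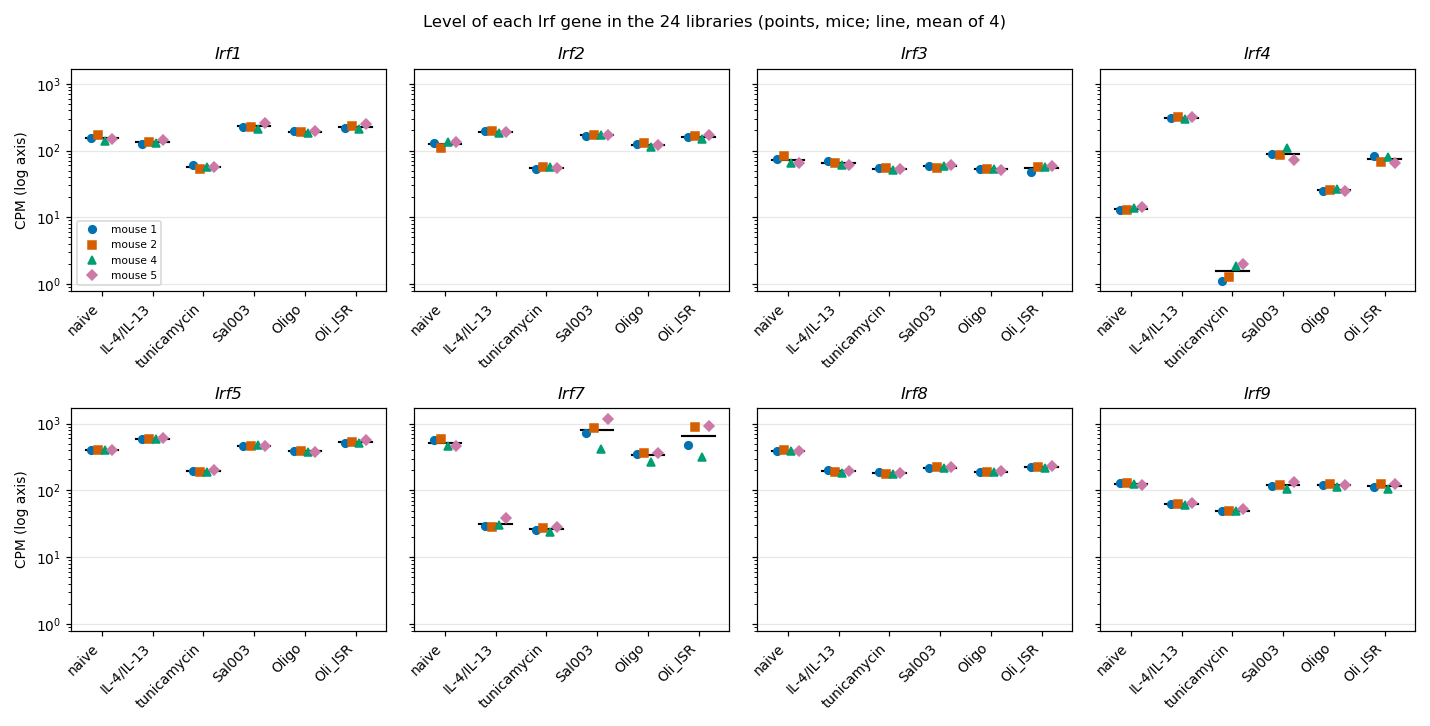
Level of the 8 Irf genes in CPM (log axis) in the 6 groups of 4 libraries; each symbol is 1 mouse and the line is the mean. *Irf4* spans 1.13 to 316 CPM, with the 4 mice close together in the naive, IL-4/IL-13 and Oligo groups. Its mice lie wider apart with tunicamycin (1.13 to 2.04 CPM), with Sal003 (71.7 to 110 CPM) and in Oli_ISR libraries (65.1 to 82.2 CPM). *Irf7* spreads between mice in the Sal003 and Oli_ISR libraries (416 to 1190 and 318 to 920 CPM), and *Irf3* stays between 47.3 and 81.6 CPM.

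*Irf2* and *Irf5* followed the direction of *Irf4* with far smaller changes. *Irf5* (chromosome 6, 29526276 to 29541870, plus strand) had 401, 403, 396 and 405 CPM in naive cells and 582, 597, 584 and 618 CPM with IL-4/IL-13. The groups did not overlap, and the rise was by a log2 fold change of 0.57 (SE 0.04, adjusted *P* = 1.2e-12). With tunicamycin *Irf5* had 196, 192, 191 and 199 CPM, under every naive library (log2 fold change against IL-4/IL-13 −1.61, SE 0.04, adjusted *P* = 2.1e-22).
Oligo libraries, at 394, 392, 374 and 380 CPM, lay at 95.9% ± 2.14 (SD, n = 4) of the naive level of the same mouse. The difference did not pass the test (log2 fold change −0.06, 95% interval −0.14 to 0.01, adjusted *P* = 0.161), although all 4 lay under every naive library, and passed with DESeq2 (−0.07, adjusted *P* = 0.0464) and with at least 10 counts in every library (−0.09, adjusted *P* = 0.0283). Oli_ISR libraries (512, 536, 504 and 563 CPM) and Sal003 libraries (470, 458, 481 and 467 CPM) lay between naive and IL-4/IL-13 cells. Of the neighbouring groups of *Irf5* only naive and Oligo did not differ past the threshold, and the difference between Oli_ISR and Sal003 (0.17, adjusted *P* = 0.0021) was lost without mouse 5 (0.13, adjusted *P* = 0.0785).

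*Irf2* (chromosome 8, 47192222 to 47300501, plus strand) had 131, 109, 134 and 133 CPM in naive cells and 195, 194, 184 and 187 CPM with IL-4/IL-13 (log2 fold change 0.59, SE 0.06, adjusted *P* = 8.3e-10). The level in mouse 2 was the lowest of the naive libraries, and the groups did not overlap. Tunicamycin libraries had 52.3, 57.6, 56.7 and 55.5 CPM, or 29.2% ± 1.64 (SD, n = 4) of the IL-4/IL-13 level of the same mouse (log2 fold change −1.78, SE 0.06, adjusted *P* = 7.3e-20). Oligo libraries had 125, 128, 112 and 121 CPM, which overlapped with naive cells and differed from them by a log2 fold change of −0.06 (95% interval −0.17 to 0.05, adjusted *P* = 0.322). Without mouse 2, the lowest naive library, the difference was −0.15 and passed (adjusted *P* = 0.0107).
The remaining decreases from IL-4/IL-13 were smaller, by log2 fold changes of −0.24 in Oli_ISR libraries (SE 0.05, adjusted *P* = 0.00052) and −0.16 with Sal003 (SE 0.05, adjusted *P* = 0.0149), the latter lost without mouse 1. *Irf2*, *Irf4* and *Irf5* had Pearson correlations with each other of 0.95 to 0.98 over the 24 libraries, which share groups and mice, so the values describe the similarity of the profiles and nothing more.

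*Irf7* fell where *Irf4* rose with IL-4/IL-13. This gene (ENSMUSG00000025498; chromosome 7, 140842619 to 140846398, minus strand, 1.7% of its exon sequence shared with Phrf1 on the other strand) had 571, 580, 469 and 457 CPM in naive cells and 29.5, 28, 29.9 and 39 CPM with IL-4/IL-13. All 4 mice dropped to a like level, a 16.5-fold decrease (log2 fold change −4.04, SE 0.33, adjusted *P* = 2.2e-09). With tunicamycin it had 25.7, 27.2, 23.7 and 28.1 CPM, which overlapped with IL-4/IL-13 cells (log2 fold change −0.27, 95% interval −0.92 to 0.38, adjusted *P* = 0.474), a difference that passed when the other groups were left out of the fit (−0.29, adjusted *P* = 0.0157).

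In the 3 other inhibitor groups *Irf7* lay far above its IL-4/IL-13 level, and the mice parted. Sal003 libraries of mice 1, 2, 4 and 5 had 720, 850, 416 and 1190 CPM, and Oli_ISR libraries had 483, 885, 318 and 920 CPM. In both groups mouse 4 was lowest and mouse 5 highest, with the highest 2.85 and 2.89 times the lowest. Oligo libraries had 354, 359, 270 and 365 CPM, all under the naive libraries, where mouse 4 was again lowest and the highest was 1.35 times the lowest.
The log2 fold changes against IL-4/IL-13 were 4.65 with Sal003 (SE 0.34, adjusted *P* = 7.2e-10), 4.37 in Oli_ISR libraries (SE 0.34, adjusted *P* = 1.3e-09) and 3.42 in Oligo libraries (SE 0.33, adjusted *P* = 1.6e-08), each higher in 4 of 4 mice. Against naive cells none of the 3 passed the test: the log2 fold change was 0.61 with Sal003 (95% interval 0.05 to 1.17, adjusted *P* = 0.0704), 0.33 in Oli_ISR libraries (95% interval −0.23 to 0.89, adjusted *P* = 0.325) and −0.62 in Oligo libraries (95% interval −1.19 to −0.06, adjusted *P* = 0.0591).
With mouse as a block, the Sal003 (log2 fold change 0.52, adjusted *P* = 0.0483) and Oligo differences from naive (log2 fold change −0.65, adjusted *P* = 0.0149) did pass, as they did with DESeq2 (0.62 and −0.63) and without mouse 4 (0.78 and −0.57). *Irf7* was lower in the Oligo than in the Oli_ISR libraries (log2 fold change −0.95, SE 0.29, adjusted *P* = 0.0118) in 4 of 4 mice. The call was lost without mouse 2 (log2 fold change −0.80), without mouse 5 (−0.77) and with the other groups left out of the fit (−0.94).

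The mice were ordered differently for *Irf4*. Mouse 5, with the highest *Irf7*, had the lowest *Irf4* in the Sal003 (71.7 CPM) and Oli_ISR libraries (65.1 CPM), and mouse 4, with the lowest *Irf7*, had the highest *Irf4* with Sal003 (110 CPM) and the second highest in Oli_ISR libraries (80.3 CPM). Mouse 5 was also highest for *Irf7* and lowest for *Irf4* in Oligo libraries (365 and 24.6 CPM). In naive cells it was lowest for *Irf7* and highest for *Irf4* (457 and 14.3 CPM). In the remaining groups mouse 5 was highest for both genes, with IL-4/IL-13 (39 and 316 CPM) and with tunicamycin (28.1 and 2.04 CPM). The order of the mice was thus not opposite in every group. With 4 mice per group this is a description, with no test.

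*Irf9*, the DNA-binding subunit of ISGF3 (chromosome 14, 55841028 to 55847812, plus strand, 4.9% of its exon sequence shared with Rnf31 on the same strand), had the direction of *Irf7* at a smaller size and with closer replicates. It had 128, 129, 125 and 121 CPM in naive cells and 63, 63.6, 61.4 and 65.4 CPM with IL-4/IL-13, a 1.99-fold decrease (log2 fold change −0.99, SE 0.06, adjusted *P* = 4.2e-13). Sal003 libraries had 118, 122, 105 and 133 CPM, Oligo libraries 119, 124, 112 and 122 CPM and Oli_ISR libraries 111, 127, 104 and 127 CPM. All 12 libraries lay above every IL-4/IL-13 library, by log2 fold changes of 0.92, 0.91 and 0.89 (adjusted *P* = 5e-12, 1.7e-12 and 6.4e-12), and overlapped with naive cells.
None of the 3 groups differed from naive past the threshold, with 95% intervals of the log2 difference within −0.22 to 0.05. For Oli_ISR libraries the log2 fold change of −0.10 became −0.16 and passed with upper-quartile normalization (adjusted *P* = 0.0294) and without mouse 5 (adjusted *P* = 0.0423). Tunicamycin libraries had 49.5, 49.4, 49.2 and 52.1 CPM and lay under IL-4/IL-13 cells (log2 fold change −0.34, SE 0.06, adjusted *P* = 3.9e-05). *Irf7* and *Irf9* had a Pearson correlation of 0.97 over the 24 libraries, against 0.22 for *Irf4* and *Irf7*.

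**Figure D2:**
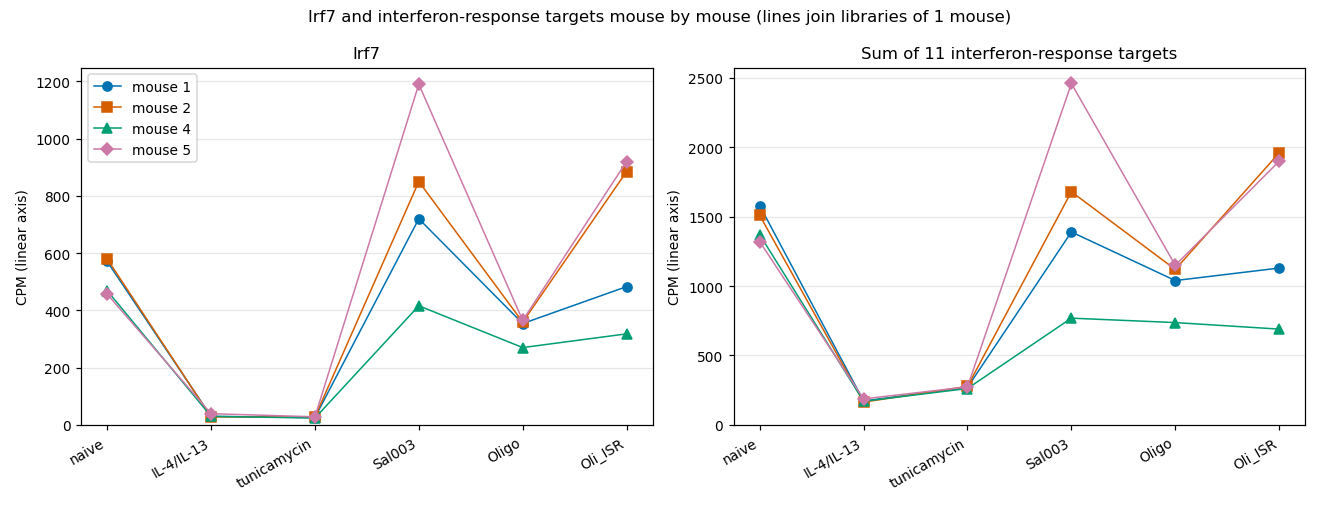
*Irf7* (left) and the summed level of 11 targets of IRF3, IRF7 and ISGF3 (right) in CPM (linear axis) over the 6 groups; each line joins the libraries of 1 mouse. Both are low with IL-4/IL-13 and with tunicamycin, and with Sal003 both run from mouse 4 (416 and 769 CPM) to mouse 5 (1190 and 2460 CPM).

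The targets of IRF3, IRF7 and ISGF3 showed the same split between mice. Their list held *Isg15*, *Ifit1*, *Ifit2*, *Ifit3*, *Mx1*, *Rsad2*, *Oasl1*, *Oas1a*, *Usp18*, *Cxcl10* and *Ccl5*, which are antiviral effectors, a regulator of interferon signaling (*Usp18*) and chemokines. With IL-4/IL-13 10 of the 11 fell and none rose (30.4% and 30% of all genes did), with a median log2 fold change of −4.03 against −0.02 over all genes tested. *Ifit3* fell from 262 to 3.70 CPM on average and *Rsad2* from 153 to 8.38 CPM, and *Usp18* did not pass (66.5 and 61.2 CPM).
The targets that rose against IL-4/IL-13 numbered 10 with Sal003 (25.9% of all genes), 10 in the Oligo (33.9%) and 11 in the Oli_ISR libraries (27.9%), with medians of 4.23, 3.78 and 4.32 on the log2 scale. Each median stood against a value over all genes of at most 0.01. Mouse 4 had the lowest level of all 11 targets in both the Sal003 and the Oli_ISR libraries and of 9 in the Oligo libraries. Mouse 5 had the highest level of all 11 with Sal003 and of 8 in Oligo libraries, and in Oli_ISR libraries mouse 2 had the highest of 7 and mouse 5 of 4.
Fibroblast markers were lowest in mouse 5 and highest in mouse 1 in every group, and their relation to these targets was not tested.

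With tunicamycin 5 of the 11 targets rose, where 38.6% of all genes did, *Cxcl10* from 0.820 to 18.6 CPM, *Isg15* from 5.29 to 25.1 CPM, *Rsad2*, *Ifit1* and *Ifit3*, and *Usp18* fell (log2 fold change −0.32, adjusted *P* = 0.0397). The median log2 fold change was 1.06 against 0.01 over all genes. Interferon genes themselves had few reads. None of 5 (*Ifnb1*, *Ifna4*, *Ifnl2*, *Ifnl3* and *Ifng*) had enough reads to be tested, and the highest count in any library was 17, for *Ifnb1* in an Oli_ISR library, a group in which its mean was 0.425 CPM. The means of *Ifnb1* were 0.298 CPM in naive cells, 0.0700 CPM with IL-4/IL-13, 0.0658 CPM with tunicamycin, 0.0965 CPM with Sal003 and 0.319 CPM in Oligo libraries.

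*Irf3*, which is activated after translation by phosphorylation, was the steadiest member. It (chromosome 7, 44647033 to 44652272, plus strand) had 64.1 to 81.6 CPM in naive cells, 60.8 to 69 CPM with IL-4/IL-13 and 47.3 to 60 CPM in the 4 inhibitor groups. The decrease with IL-4/IL-13 was just outside the threshold (log2 fold change −0.15, SE 0.07, adjusted *P* = 0.0502), and inside it with mouse as a block (adjusted *P* = 0.0465). Against naive cells *Irf3* was lower in all 4 inhibitor groups, whose libraries all lay under every naive library. The log2 fold changes were −0.42 with tunicamycin, −0.29 with Sal003, −0.43 in Oligo and −0.38 in Oli_ISR libraries (adjusted *P* = 2.8e-06, 0.00056, 2.9e-06 and 2.1e-05). None of the 5 neighbouring groups of *Irf3* in order of level differed past the threshold. Against IL-4/IL-13 it fell by log2 fold changes of −0.27 with tunicamycin, −0.28 in Oligo and −0.23 in Oli_ISR libraries (adjusted *P* = 0.00077, 0.00076 and 0.0056), the last lost without mouse 1 (log2 fold change −0.14). Sal003 gave −0.13 (95% interval −0.27 to 0, adjusted *P* = 0.0967), although its 4 libraries lay under every IL-4/IL-13 library. This difference passed with upper-quartile normalization (−0.17, adjusted *P* = 0.0495) and when the other groups were left out of the fit (−0.15, adjusted *P* = 0.0111).

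*Irf1*, an early interferon-γ target, rose above its naive level in 3 inhibitor groups. *Irf1* (chromosome 11, 53660812 to 53669200, plus strand) had 156, 171, 141 and 149 CPM in naive cells and 127, 133, 128 and 144 CPM with IL-4/IL-13, groups that overlapped (log2 fold change −0.21, SE 0.06, adjusted *P* = 0.0055; lost without mouse 1 or 2, at −0.18 and −0.16). Sal003 libraries had 225, 225, 212 and 258 CPM, Oli_ISR libraries 215, 233, 212 and 247 CPM and Oligo libraries 195, 192, 184 and 198 CPM. All 12 lay above every naive library, by log2 fold changes of 0.57, 0.56 and 0.32 (adjusted *P* = 1.7e-08, 2.7e-08 and 8.8e-05).
Sal003 and Oli_ISR libraries were not told apart (log2 difference 0.02, 95% interval −0.11 to 0.14, adjusted *P* = 0.89). Tunicamycin libraries had 60.9, 53.2, 56.7 and 56.6 CPM, the lowest of the 6 groups (log2 fold change against IL-4/IL-13 −1.23, SE 0.07, adjusted *P* = 4.2e-15). Of the exon sequence of *Irf1*, 46% is shared with genes on the opposite strand (Gm12216, Gm17334 and Gm74496), and no source says whether counting used strand, so its reads and theirs cannot be told apart.

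*Irf8*, a lineage factor of myeloid cells, fell with IL-4/IL-13 and stayed down. *Irf8* (chromosome 8, 121463096 to 121485659, plus strand, no exon shared) had 390, 397, 383 and 389 CPM in naive cells and 201, 192, 185 and 198 CPM with IL-4/IL-13, a 2.01-fold decrease (log2 fold change −1.01, SE 0.04, adjusted *P* = 9.7e-18). Every inhibitor library held between 175 and 236 CPM. Sal003 and Oli_ISR libraries lay slightly above IL-4/IL-13 cells, by log2 fold changes of 0.18 and 0.21 (adjusted *P* = 0.00034 and 6e-05), and at 56.3% ± 1.11 and 57.3% ± 2.26 (SD, n = 4) of the naive level of the same mouse.
Oligo libraries were not told apart from IL-4/IL-13 cells (log2 fold change −0.02, 95% interval −0.10 to 0.05, adjusted *P* = 0.616). The decrease with tunicamycin was small (log2 fold change −0.11, SE 0.04, adjusted *P* = 0.0113) and was lost without mouse 1 or 5 (−0.08 in both) and without the filter on low counts (−0.07). *Irf9*, which fell about as much as *Irf8* with IL-4/IL-13, overlapped with naive cells in the Sal003, Oligo and Oli_ISR libraries, whereas every *Irf8* library of these groups lay below the naive ones.

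**Figure D3:**
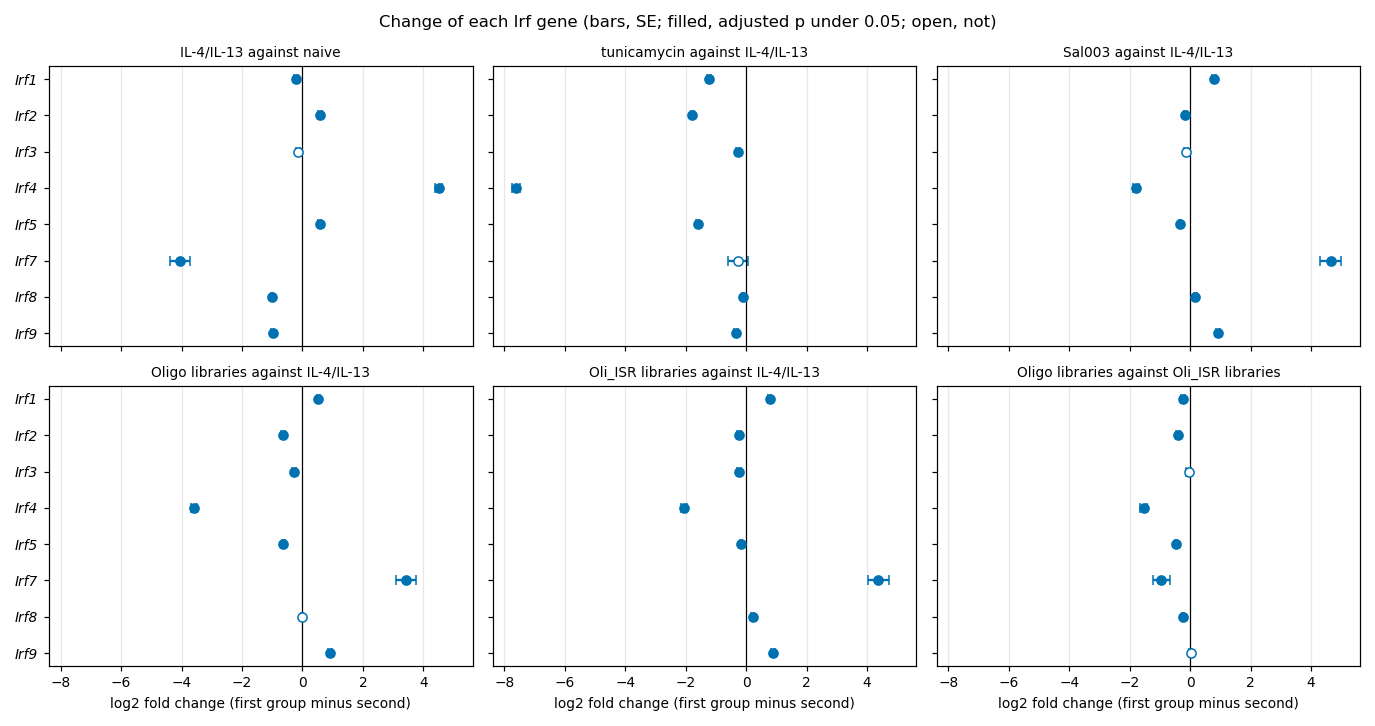
Log2 fold change (x axis, first group minus second) of each Irf gene (y axis) in 6 comparisons, with the SE as bars; filled symbols passed an adjusted p-value under 0.05 and open ones did not. *Irf4* and *Irf7* stand apart with changes of 4.51 and −4.04 with IL-4/IL-13, and with tunicamycin no member lies to the right of 0.

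Counts over the family were read against those over all genes, since large parts of the transcriptome moved. With IL-4/IL-13, 3 of 8 members rose (30% of all genes tested) and 4 fell (30.4%), and 2, *Irf4* and *Irf7*, changed at least 2.5-fold (11.5%). With tunicamycin against IL-4/IL-13, none of 8 rose (38.6% of all genes) and 7 fell (37.6%), and *Irf2*, *Irf4* and *Irf5* passed 2.5-fold, which were 3 of 8 against 22.5%. Of *Irf7*, the member that did not pass the test there, all 4 mice had less with tunicamycin. The median log2 fold change of the 8 members was −0.78, against 0.01 over all genes.
With Sal003, 4 members rose (25.9% of all genes) and 3 fell (24.6%), and *Irf4* and *Irf7* were again the 2 past 2.5-fold (7.7%). In Oligo libraries 3 rose (33.9%) and 4 fell (32.1%), with 2 past 2.5-fold (12.7%), and in Oli_ISR libraries 4 rose (27.9%) and 4 fell (26.3%), with 2 past 2.5-fold (7.96%), in both cases *Irf4* and *Irf7*. These 4 comparisons share the IL-4/IL-13 libraries. Between Oligo and Oli_ISR libraries no member was higher in Oligo (19.8% of all genes were) and 6 were lower (21.3%), *Irf3* and *Irf9* being the other two.

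Against naive cells, all 8 members differed with tunicamycin (77.5% of all genes), and all 8 were lower. With Sal003 6 differed (62.3%), in Oligo libraries 4 (70.9%) and in Oli_ISR libraries 6 (63.6%). The members that did not pass were *Irf7* and *Irf9* in all 3 groups and, in Oligo libraries, also *Irf2* and *Irf5*. Tunicamycin differed from Sal003 in 7 members (71.9%), from Oligo libraries in 7 (63.4%) and from Oli_ISR libraries in 7 (71%), all but *Irf3* and all lower with tunicamycin. Oligo libraries differed from Sal003 in 6 (51.5%), all lower. Oli_ISR libraries differed from Sal003 in 2 members (18.4%), *Irf4* and *Irf5*, and in opposite directions.

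The make-up of the family was compared on a scale that divides by length (TPM, calculated from the counts and the length of all exons of a gene). In naive cells *Irf7* made up 42.4% ± 2.47 (SD, n = 4) of the summed TPM of the 8 members and *Irf4* 0.859% ± 0.0926, the lowest. With IL-4/IL-13, *Irf5* was first with 33.4% ± 0.369 and *Irf4* second with 25.2% ± 0.272, while *Irf7* was last with 3.35% ± 0.456. *Irf4* had gone from last to second and *Irf7* from first to last, and the family total went from 1560 ± 98.1 to 1140 ± 42.2 TPM (SD, n = 4).
With tunicamycin the total was 485 ± 13.3 TPM, the lowest of the 6 groups, led by *Irf5* (28.9% ± 0.185), *Irf8* (19.7% ± 0.292) and *Irf3* (16.3% ± 0.401). *Irf7* was first again with Sal003 (48.6% ± 10.4), in Oligo (34.8% ± 2.72) and in Oli_ISR libraries (43.1% ± 11.2), where *Irf4* made up 4.63% ± 1.81, 2.04% ± 0.193 and 4.18% ± 1.42. With the longest transcript as the length, *Irf4* was at 19.6% with IL-4/IL-13 and still second, and *Irf7* at 36.6% in naive cells and still first, but with tunicamycin *Irf8* (23.3%) then led before *Irf5* (21.9%). These shares depend on which exons are counted and are descriptions.

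**Figure D4:**
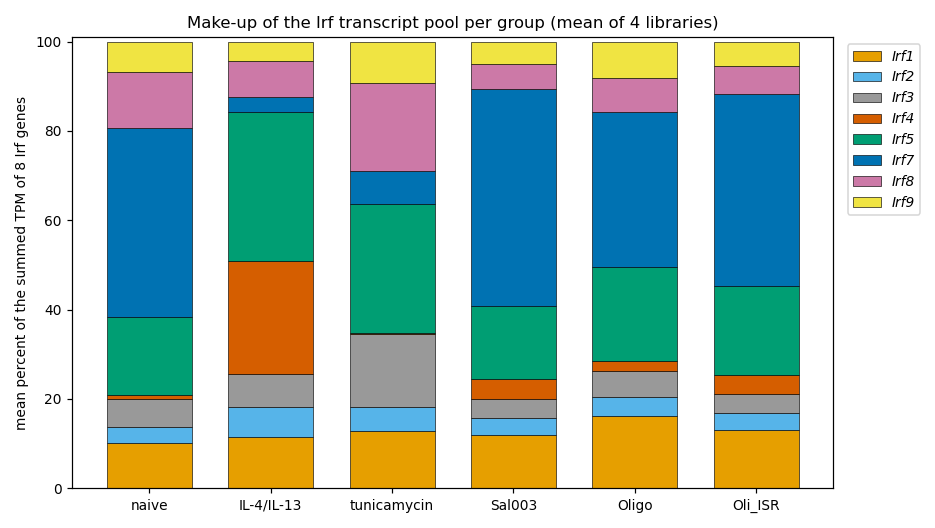
Mean percent (y axis, from 0) that each of the 8 Irf genes takes of their summed TPM in the 6 groups of 4 libraries. *Irf7* takes 42.4% in naive cells and 3.35% with IL-4/IL-13, where *Irf4* takes 25.2%, and *Irf7* takes 48.6%, 34.8% and 43.1% in the Sal003, Oligo and Oli_ISR libraries.

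Among IRF partners and co-regulators, 12 of 13 genes were tested (*Ikzf3* was not), of which 1 rose and 8 fell with IL-4/IL-13 (30% and 30.4% of all genes did). *Batf3*, a partner of IRF4 and IRF8 on DNA, was the gene that rose, from 6.65 to 94.3 CPM (log2 fold change 3.83, SE 0.09, adjusted *P* = 5.6e-22). It fell with tunicamycin to 5.79 CPM and was at 36.8 CPM with Sal003, 17.6 CPM in Oligo and 35.2 CPM in Oli_ISR libraries. The means had the order of *Irf4* over all 6 groups. Libraries of *Batf3* overlapped between Sal003 and Oli_ISR (33.7 to 39.2 and 33.8 to 36.5 CPM) and between naive and tunicamycin (5.42 to 8.87 and 5.45 to 6.19 CPM). Test results for *Batf3* within these pairs are not given here. Of its exon sequence 29.4% is shared with Gm70128 on the other strand. *Stat2*, a partner of IRF9, fell with IL-4/IL-13 (log2 fold change −1.36) and rose from there in the Sal003, Oligo and Oli_ISR libraries (1.4 to 1.86).
With tunicamycin 4 partners rose and 6 fell, against 38.6% and 37.6% of all genes. *Batf*, a sister gene of *Batf3*, rose from 6.13 to 69.2 CPM while *Batf3* fell. *Spi1*, the ETS factor that recruits IRF4 and IRF8, rose by a log2 fold change of 0.21 (SE 0.05, adjusted *P* = 0.00097). The counts that rose and fell were 5 and 2 with Sal003 (25.9% and 24.6% of all genes), 5 and 3 in Oligo (33.9% and 32.1%) and 4 and 3 in Oli_ISR libraries (27.9% and 26.3%), and 1 and 4 for Oligo against Oli_ISR (19.8% and 21.3%).

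In the pathway that leads to IRF activation (24 genes, all tested), 5 rose and 11 fell with IL-4/IL-13, where 30% and 30.4% of all genes did. Those that fell included the endosomal receptors *Tlr7* (238 to 56.3 CPM), *Tlr9* (100 to 24.8 CPM) and *Tlr3* (29.5 to 12 CPM), the RNA sensors *Rigi* (214 to 47.5 CPM) and *Ifih1* (100 to 39.4 CPM), and the interferon receptor chain *Ifnar2* (90.9 to 36.7 CPM). The counts that rose and fell against IL-4/IL-13 were 8 and 10 with tunicamycin (38.6% and 37.6% of all genes), 10 and 2 with Sal003 (25.9% and 24.6%), 7 and 11 in Oligo (33.9% and 32.1%) and 9 and 4 in Oli_ISR libraries (27.9% and 26.3%). The tunicamycin counts were near those shares.
The receptor *Tlr7* rose in all 4 inhibitor groups and *Ifnar2* too, whereas *Rigi*, *Ifih1* and *Tlr3* rose with Sal003 and in the Oligo and Oli_ISR libraries but with tunicamycin had log2 fold changes of −0.22, 0.03 and 0 that did not pass the test. Between Oligo and Oli_ISR libraries none was higher in Oligo and 14 of 24 were lower, against 19.8% and 21.3% of all genes.

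Of 8 targets of IRF1 and IRF8, 1 rose and 5 fell with IL-4/IL-13, against 30% and 30.4% of all genes. The riser was *Ciita*, the master regulator of MHC class II genes (99.3 to 238 CPM; log2 fold change 1.26, SE 0.07, adjusted *P* = 9.5e-15). *Ciita* then fell in every inhibitor group, to 15.3 CPM with tunicamycin, 95.7 CPM with Sal003, 28.9 CPM in Oligo and 60.4 CPM in Oli_ISR libraries. The targets that rose and fell numbered 2 and 4 with tunicamycin (38.6% and 37.6% of all genes), 6 and 1 with Sal003 (25.9% and 24.6%), 4 and 1 in Oligo (33.9% and 32.1%) and 5 and 1 in Oli_ISR libraries (27.9% and 26.3%), *Ciita* being the single gene that fell in the latter 3. *Tap1*, a peptide transporter, rose from 87.1 CPM to 240, 270 and 245 CPM with Sal003, in Oligo and in Oli_ISR libraries, and had 91.1 CPM with tunicamycin. Between Oligo and Oli_ISR libraries none was higher in Oligo and 2 (*Cybb* and *Ciita*) were lower, against 19.8% and 21.3% of all genes.

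Of the 5 targets of IRF5, 3 were tested (*Il12a* and *Il23a* were not). *Il12b* and *Tnf* fell with IL-4/IL-13, *Tnf* from 19.3 to 6.11 CPM, while *Irf5* itself rose. *Il6* stood out with tunicamycin, at 103 CPM against 0.0714 CPM with IL-4/IL-13, and was at 18 CPM in Oligo libraries, 0.809 CPM in Oli_ISR libraries and 0.535 CPM with Sal003, all 4 past the threshold. *Tnf* rose with tunicamycin and in the Oligo and Oli_ISR libraries (to 16.7, 11.8 and 8.74 CPM), and with Sal003 had 6.87 CPM (adjusted *P* = 0.488). Thus 2, 1, 2 and 2 of 3 rose with tunicamycin, with Sal003, in Oligo and in Oli_ISR libraries and none fell. Over all genes, 38.6%, 25.9%, 33.9% and 27.9% rose in these groups and 37.6%, 24.6%, 32.1% and 26.3% fell. *Il6* was higher in Oligo than in Oli_ISR libraries.

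In the list around IRF4 in IL-4 macrophages, *Arg1*, *Chil3*, *Retnla*, *Mrc1* and the demethylase *Kdm6b* rose with IL-4/IL-13 (30% of all genes did). The receptor chain *Il4ra* fell (169 to 91.9 CPM), where 30.4% of all genes did. All 5 of the list that rose fell with tunicamycin (37.6% of all genes did), where *Il4ra* rose to 162 CPM. *Il4ra* also rose in Oligo libraries (104 CPM). In the other 3 inhibitor groups *Arg1*, *Chil3*, *Retnla* and *Kdm6b* fell and *Mrc1* did not. Over all genes, 24.6%, 32.1% and 26.3% fell with Sal003, in Oligo and in Oli_ISR libraries. *Mrc1* rose with Sal003 (634 to 789 CPM) and did not pass the test in Oligo (685 CPM) and Oli_ISR libraries (655 CPM).
*Arg1* had 455 CPM with IL-4/IL-13, 129 CPM with Sal003, 148 CPM in Oligo and 295 CPM in Oli_ISR libraries. *Kdm6b* had 32.6, 13.1, 14.1 and 21.5 CPM in the same groups. For both, the Sal003 and Oligo libraries overlapped (*Arg1* 94.9 to 154 and 110 to 179 CPM), so their order was not settled. The means of *Retnla* (155 CPM with Sal003, 49.6 CPM in Oligo) and *Chil3* (2190 and 1370 CPM) were lower in Oligo, as for *Irf4*, with *Chil3* libraries overlapping. Test results of Oligo against Sal003 are not given here for these genes. Between Oligo and Oli_ISR libraries, *Kdm6b*, *Arg1*, *Chil3* and *Retnla* were lower in Oligo and *Il4ra* was higher, against 21.3% and 19.8% of all genes.

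The stress factors *Atf4*, *Ddit3* and *Trib3* rose in each of the 4 inhibitor groups against IL-4/IL-13. Over all genes, 38.6% rose with tunicamycin, 25.9% with Sal003, 33.9% in Oligo and 27.9% in Oli_ISR libraries. *Atf4*, the transcription factor of the ISR, had 136 CPM with IL-4/IL-13, 206 CPM with Sal003, 478 CPM in Oli_ISR, 704 CPM in Oligo and 1090 CPM with tunicamycin. Over these 5 groups that is the reverse of the order of *Irf4*, whose step between Sal003 and Oli_ISR was lost in some alternatives. The reverse order does not hold with naive cells, which had the lowest mean *Atf4* of the 6 groups (116 CPM) and little *Irf4* (13.5 CPM). The relation was not tested, since the groups share mice and differ in agent. All 3 factors were higher in Oligo than in Oli_ISR libraries (19.8% of all genes were). With IL-4/IL-13 alone *Atf4* and *Trib3* rose (30% of all genes did) and *Ddit3* did not pass the test. Of the exon sequence of *Ddit3*, 82.4% is shared with genes on the other strand, so its counts are uncertain. Smaller shares are shared for *Isg15* (31.1%), *Arg1* (23.8%) and *Tap1* (12.4%) on the other strand and for *Ifnar2* (20%) on the same strand.

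The genes whose profile over the 24 libraries was most like that of *Irf4*, by Pearson correlation of log2 CPM, were *Sh3kbp1*, *Ptpre*, *Casp6* and *Stac2* (0.988 each) and *Traf5* (0.987). For the others the nearest were *H2-T23* and *Tapbp* for *Irf1* (0.994 and 0.991), *Hip1* and *Rin2* for *Irf2* (0.993 each), *Plac8* and *Jaml* for *Irf3* (0.922 and 0.921), *Rin2* and *Ap1s3* for *Irf5* (0.990 and 0.988), *Dhx58* and *Rtp4* for *Irf7* (0.994 and 0.992), *Tifa* and *Ncf1* for *Irf8* (0.988 and 0.986) and *Oasl2* and *Mndal* for *Irf9* (0.992 and 0.988). These are the highest values among all genes tested, over libraries that share groups, and describe likeness only.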

How the data were processed

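The members and gene lists were chosen with earlier results of these data known. Per the labels and the methods of the study, the authors trimmed reads with Cutadapt 1.8, mapped them to GRCm39 using STAR 2.7 and obtained gene counts from HTSeq 0.9.1, with no strand setting stated. The deposited values used are these raw counts of 56884 genes in 24 libraries. The 5 totals in the table that belong to no gene took 12.74% to 15.23% of reads and were left out. The deposited RSEM 1.2.31 table was not used, because its header and its rows differ in length.

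Libraries held 16238727 to 26725278 reads on genes. Replicates of a group differed by more than sampling noise. Counts were tested with edgeR 4.0.16 in R 4.3.3 (TMM normalization, filterByExpr, robust quasi-likelihood fit, 1 coefficient per group over all libraries), which was tested on simulated data, with Benjamini-Hochberg adjustment over 13679 genes. A gene that rose, fell or changed had an adjusted p-value under 0.05, and a count at 2.5-fold, the threshold of the study, is given too. CPM values use TMM library sizes, and intervals are the estimate ± 1.96 SE. Each SE was derived from the log2 fold change and its quasi-likelihood F statistic, with the spread of a gene estimated over all 6 groups together. The intervals thus do not measure the spread of only the 2 groups compared. For *Irf7* in tunicamycin against IL-4/IL-13, the SE was 0.33, and 0.1 with the other groups left out of the fit. TPM values were calculated from the counts and GENCODE M39 exon lengths. Of the gene identifiers, 56323 were found in that annotation.

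Mouse numbers mark the same animal across groups, and same-numbered libraries deviated together: the correlation of deviations from group means had a median of 0.24 and was over 0.1 in 56 of 60 pairs, against a median of −0.05 between mice. The study states no block, so none was used in the reported values, and mouse as a block was an alternative. Also tried were each mouse left out, the 2 compared groups alone, DESeq2 1.42.0, scaling by the upper quartile, dropping the low-count filter (27890 genes) or asking for 10 reads in each library (11017 genes), and the longest transcript as gene length. All members were named by rule, with the 5 genes most like *Irf4* and 2 for each other member; the genes named from the lists were picked as examples after their values were seen. Some genes are not reported here.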

Additional observations from a re-analysis of the deposited data

Results flagged for a closer look

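Of 48 tests of 4 libraries each (8 members in 6 groups), 4 had a library that stood apart from the other 3 by Dixon's criterion, where chance gives about 2.4 at 1 in 20. *Irf7* had 270 CPM in the Oligo library of mouse 4, against 354 to 365 CPM in the other mice; *Irf7* was lowest in the same mouse with Sal003 and in Oli_ISR libraries. *Irf2* had 109 CPM in the naive library of mouse 2, against 131 to 134 CPM. *Irf3* had 47.3 CPM in the Oli_ISR library of mouse 1, against 56.6 to 58 CPM, and *Irf9* had 52.1 CPM in the tunicamycin library of mouse 5, against 49.2 to 49.5 CPM.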

How the results depend on the processing

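Of 95 calls on single members (8 members, 15 comparisons), 8 were lost under at least 1 alternative and none reversed. The signs that reversed belonged to *Irf3* differences near 0 that never passed the test: tunicamycin against Oligo libraries (0.01; −0.04 with upper-quartile normalization and −0.01 with at least 10 counts) and against Oli_ISR libraries (−0.04; 0.03 without mouse 5). The number of members called in a comparison stayed within 1.5 times in all but Oli_ISR against Sal003, where 2 became 1 without the filter on low counts and with the 2 groups alone, and ranged from 1 to 1 when a mouse was left out. Of the calls lost, *Irf8* in tunicamycin against Oligo libraries (log2 fold change −0.09, adjusted *P* = 0.0479) was lost without any 1 mouse (−0.05 to −0.09) and without the filter (−0.05), and *Irf8* in tunicamycin against IL-4/IL-13 without the filter (−0.07). For *Irf4* in the 6 main comparisons no alternative changed a call. With mouse as a replicate block, 8 members instead of 7 passed with IL-4/IL-13 against naive; the block added the 3 calls given above and changed no other call of a member. With upper-quartile normalization the median over all genes in tunicamycin against naive went from −0.05 to −0.12. With the longest transcript as length, *Irf4* took 0.654%, 19.6%, 0.242% and 1.55% of the family TPM in naive, IL-4/IL-13, tunicamycin and Oligo libraries. The causes of these changes were not tested. Depth limits the values of *Irf4* with tunicamycin (22 to 40 reads), of the interferon genes and of *Il6* and *Il12b* with IL-4/IL-13 (at most 2 and 3 reads in a library).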
